A study of Mus musculus with 6 samples.

Results

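Smooth muscle and nonmuscle myosin II genes were followed in bulk RNA-Seq of the ductus arteriosus (DA), the fetal artery that joins the pulmonary artery to the aorta, from mouse embryos at E17.5. The genes were taken by symbol from the deposited table and were 3 heavy chains (*Myh11*, *Myh9*, and *Myh10*), 4 light chains (*Myl9*, *Myl6*, *Myl12a*, and *Myl12b*), the light chain kinase *Mylk*, and 2 phosphatase genes (*Ppp1r12a* and *Ppp1r14a*). All 10 were found among 23997 genes, and all 10 were abundant enough to be tested. The 6 libraries came from C57BL/6 embryos without treatment, 3 of them wild type littermates (WT) and 3 of genotype Prdm6f/f; SM22-Cre (KO). In the KO embryos, both *Prdm6* alleles are floxed and Cre is driven in smooth muscle cells (SMCs) by the promoter of SM22, the protein that *Tagln* encodes. Whether the WT embryos carried Cre or a floxed allele, and whether DAs were pooled in a library, is not given in the sources used here, so the p values measure the spread between these libraries.

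Myosin II is a motor built from a pair of heavy chains, each carrying an essential and a regulatory light chain. In SMCs, calcium and calmodulin activate the myosin light chain kinase, which phosphorylates the regulatory light chain and lets the heads pull on actin. Myosin phosphatase reverses this step and is itself restrained by the kinases ROCK1 and ROCK2 and by the inhibitor CPI-17. *Myh11* encodes the heavy chain of differentiated smooth muscle, whereas *Myh9* and *Myh10* encode the nonmuscle heavy chains IIA and IIB that most cells use for adhesion, migration, and division. The DA closes after birth by contraction of its SMCs, and this motor carries out that contraction.

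The regulatory light chains are encoded by close relatives, and their sequences bear on how far their reads can be told apart. The first 90 coding bases are shown for the 3 genes, from GENCODE vM21 transcripts, with capitals where a base differs from *Myl12b*.
Myl12b: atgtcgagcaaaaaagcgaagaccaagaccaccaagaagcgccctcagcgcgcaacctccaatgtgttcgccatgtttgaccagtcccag
Myl12a: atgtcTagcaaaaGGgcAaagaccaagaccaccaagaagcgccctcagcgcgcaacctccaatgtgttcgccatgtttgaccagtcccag
Myl9: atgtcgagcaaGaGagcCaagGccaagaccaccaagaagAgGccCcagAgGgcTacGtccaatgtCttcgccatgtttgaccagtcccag
Over this stretch *Myl12a* differed from *Myl12b* at 4 bases and *Myl9* at 12. Over all 516 coding bases, *Myl12a* and *Myl12b* were 96.5% identical with a longest identical run of 102 bases, while *Myl9* was 85.7% identical to *Myl12a* and 86.4% to *Myl12b*. Windows of 45 bases, the shortest read that the study kept, were compared between transcripts. Of the windows of the *Myl12a* transcript, 11.7% were also in *Myl12b*, and none of the *Myl9* windows was in another gene. *Myl6* was the least distinct, with 56.8% of its windows also in other genes, nearly all of them processed pseudogenes, so its FPKM is uncertain, and those of *Myl12a* and *Myl12b* are uncertain to a smaller degree. For the 3 heavy chains the share was at most 1.26%.

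*Myl9* and *Myl6* also carried, upstream of a start site, the CArG box, the element bound by serum response factor (SRF), which drives many smooth muscle genes together with myocardin. RefSeq promoter sequences (GRCm38.p6) matched 9 of the 10 genes, the other being *Myh11*. Within 250 bases upstream of a start site, a perfect CArG box, whose pattern is symmetric so that 1 search covers both strands, was present for 2 of the 9 genes and in 1.47% of all 32851 promoters. The 2 shares differ in unit, since these promoters belong to 27025 genes and a gene can have more than 1. Stretches of 150 bases around the boxes are shown because these are the 2 matches among the myosin genes, with the box in capitals.
Myl9, chr2:156775270-156775419, plus strand: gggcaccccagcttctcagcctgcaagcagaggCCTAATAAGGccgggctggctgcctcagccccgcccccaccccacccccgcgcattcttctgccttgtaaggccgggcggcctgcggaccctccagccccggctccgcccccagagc
Myl6, chr10:128493046-128493195, minus strand: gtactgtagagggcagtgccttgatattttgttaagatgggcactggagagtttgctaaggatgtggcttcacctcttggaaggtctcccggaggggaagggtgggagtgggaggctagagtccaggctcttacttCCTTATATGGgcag
The box ended 151 bases before the RefSeq start site of *Myl9*, which lies downstream of the GENCODE start given with its values, and 40 bases before a RefSeq start site inside *Myl6*. The other *Myl6* promoter, nearer the start of the gene (chr10:128493887-128494136), had 0 boxes. Of the 14 smooth muscle contractile genes listed for comparison, 12 had a promoter sequence and 0 had a perfect box in this window. A match is a description of the sequence only, and other windows and imperfect boxes were not searched.

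The values are FPKM (fragments per kilobase of transcript, scaled to the size of the library), which can be compared between genes. They hold no read counts, and the total depth is unknown. The spacing of the lowest values, read from 10 to 20 genes in each of the other 5 libraries, put their depth at 0.928 to 1.19 times that of WT library 1. *Prdm6* itself was at 41.7, 48.4, and 19.8 FPKM in WT libraries 0, 1, and 2 and at 48.6, 27.1, and 15.4 FPKM in KO libraries 0, 1, and 2, so the whole-gene value does not separate the groups, and each direction below rests on the labels. KO library 0 held both *Xist* (81.0 FPKM) and the Y-linked *Ddx3y* (26.4 FPKM), and no other library held both above 1 FPKM. WT library 0 and KO library 1 held *Xist* (67 and 82.8 FPKM) with *Ddx3y* at most 0.383 FPKM. WT libraries 1 and 2 and KO library 2 held *Ddx3y* (24.0, 23.4, and 20.1 FPKM) with *Xist* at most 0.053 FPKM. These sex markers thus differed within both groups, and the bearing of sex on the myosin values was not tested. KO library 2 was the lowest of the 6 for 9 of the 10 myosin genes, and WT library 0 was the highest for 7.

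**Figure D1:**
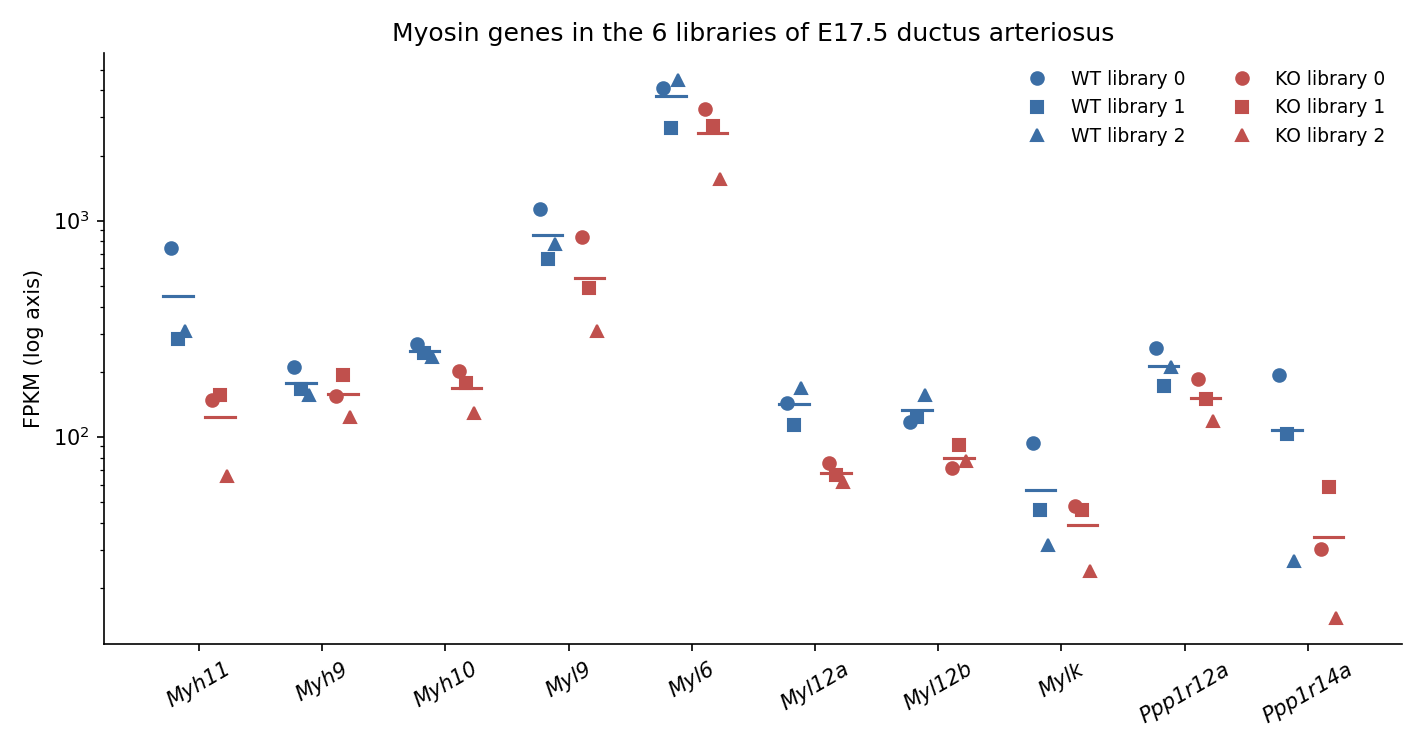
FPKM (log axis) of the 10 myosin genes in each library, with WT in blue, KO in red, 1 symbol shape per library number, and a horizontal line at the group mean. The 3 KO libraries lie below all 3 WT libraries for *Myh11*, *Myh10*, *Myl12a*, and *Myl12b*, and the groups overlap for the other 6 genes.

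All 10 myosin genes had a lower mean on the log2 scale in KO than in WT, against 44.4% of the 12955 genes tested. The 10 genes were chosen with earlier results of these data known, so this count is a description. The 44.4% covers genes from a mean of 1 FPKM up, while the lowest mean of the 10 was 47.9 FPKM (*Mylk*). The median log2 fold change of the 10 was -0.66, beside 0.072 for all genes tested. Their values ranged from -1.81 for *Myh11* to -0.19 for *Myh9*. The median of all genes depended on the filter. It was 0.014 for genes with a mean of at least 5 FPKM, a level that all 10 myosin genes reached. By limma on log2(FPKM + 0.1), 0 of the 10 passed an adjusted p of 0.05, a call that 0.00772% of all genes tested reached (1 gene, the ribosomal RNA precursor *Rn45s*, which was higher in KO). *Rn45s* was at 0 FPKM in all 3 WT libraries and at 3060, 3806, and 4520 FPKM in KO libraries 0, 1, and 2. The source of this difference, and its bearing on the other genes, was not tested. Before adjustment, 4 of the 10 had a p under 0.05 and a lower level in KO, against 4.97% of all genes tested (8.28% in either direction and 3.31% for higher genes). The groups did not overlap, with KO lower, for the same 4 genes, against 7.84% of all genes tested and 8.21% in the other direction. These genes share the same 6 libraries, so they are not independent observations of the difference. In whole DA tissue, fewer SMCs and less RNA per SMC cannot be told apart.

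In the WT libraries *Myl6* was the most abundant at a mean of 3754 FPKM, followed by *Myl9* at 860 FPKM and *Myh11* at 447 FPKM. *Myh10*, *Ppp1r12a*, *Myh9*, *Myl12a*, *Myl12b*, *Ppp1r14a*, and *Mylk* followed in this order, from 249 down to 56.7 FPKM. Each of these 7 overlapped the next in the order across libraries, as did *Myl9* and *Myh11*, whereas *Myl6* stood above *Myl9* and *Myh11* above *Myh10* in the ranges of the WT libraries. In the KO libraries *Myh11* came in sixth place at 123 FPKM, after *Myh10* at 169 FPKM, *Myh9* at 157 FPKM, and *Ppp1r12a* at 150 FPKM, and its range overlapped those of its neighbors *Ppp1r12a* and *Myl12b*. The light chains *Myl6* and *Myl9* held the first 2 places there, at 2530 and 543 FPKM.

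Of the heavy chains, *Myh11* (chromosome 16, 14194535 to 14291372, GRCm38, 42 exons in its principal transcript) had the largest difference of the 10 genes. It was at 749, 284, and 308 FPKM in WT libraries 0, 1, and 2 and at 148, 157, and 65.6 FPKM in KO libraries 0, 1, and 2. Every KO library was below every WT library, and the mean of the KO group was 27.6% of the WT mean. In limma, this was a log2 fold change of -1.81 (95% interval -2.88 to -0.74), with an unadjusted p of 0.00466 and an adjusted p of 0.463. The highest WT value came from library 0, and without it the log2 fold change was -1.36. Without KO library 0 it was -1.99, and without KO library 2 it was -1.41.

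*Myh10*, the nonmuscle IIB heavy chain (chromosome 11, 68691559 to 68816632), was also lower in every KO library. It was at 270, 244, and 233 FPKM in WT and at 201, 176, and 129 FPKM in KO, a narrow spread within WT. Its log2 fold change was -0.58 (95% interval -1.05 to -0.12), with an unadjusted p of 0.0207 and an adjusted p of 0.552 from limma. When the processing was varied, the unadjusted p of *Myh10* from limma did not always stay under 0.05. It was 0.154 with quantile normalization and 0.0677 without KO library 2, but 0.0105 without KO library 0. *Myh9*, the nonmuscle IIA heavy chain (chromosome 15, 77760587 to 77842175), was at 210, 166, and 157 FPKM in WT and at 155, 193, and 123 FPKM in KO. These ranges overlap, with KO library 1 above WT libraries 1 and 2. The log2 fold change of *Myh9* was -0.19 (95% interval -0.69 to 0.31, adjusted p = 0.786 from limma), and the interval spans 0.

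A ratio of heavy chains within a library does not depend on the scaling factor of that library. *Myh11* FPKM was 3.56, 1.71, and 1.97 times that of *Myh9* in WT libraries 0, 1, and 2, and 0.953, 0.811, and 0.533 times in KO libraries 0, 1, and 2. Relative to *Myh10* it was 2.78, 1.16, and 1.32 times in WT and 0.734, 0.888, and 0.510 times in KO. Of these 3 heavy chains, *Myh11* was thus the most abundant in all 3 WT libraries and the least abundant in all 3 KO libraries. As a share of the 3 heavy chains, *Myh11* made up 48.7% ± 10.8 (SD, n = 3) in WT and 26.6% ± 5.12 (SD, n = 3) in KO, without overlap (exact permutation test, two-sided, p = 0.1, which is the lowest p that 3 against 3 libraries can reach). The log2 ratio of *Myh11* to *Myh9* was lower in KO by a mean difference of -1.62, and that to *Myh10* by -1.23 (exact permutation p = 0.1 for each, 0.175 adjusted over 7 ratios).

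**Figure D2:**
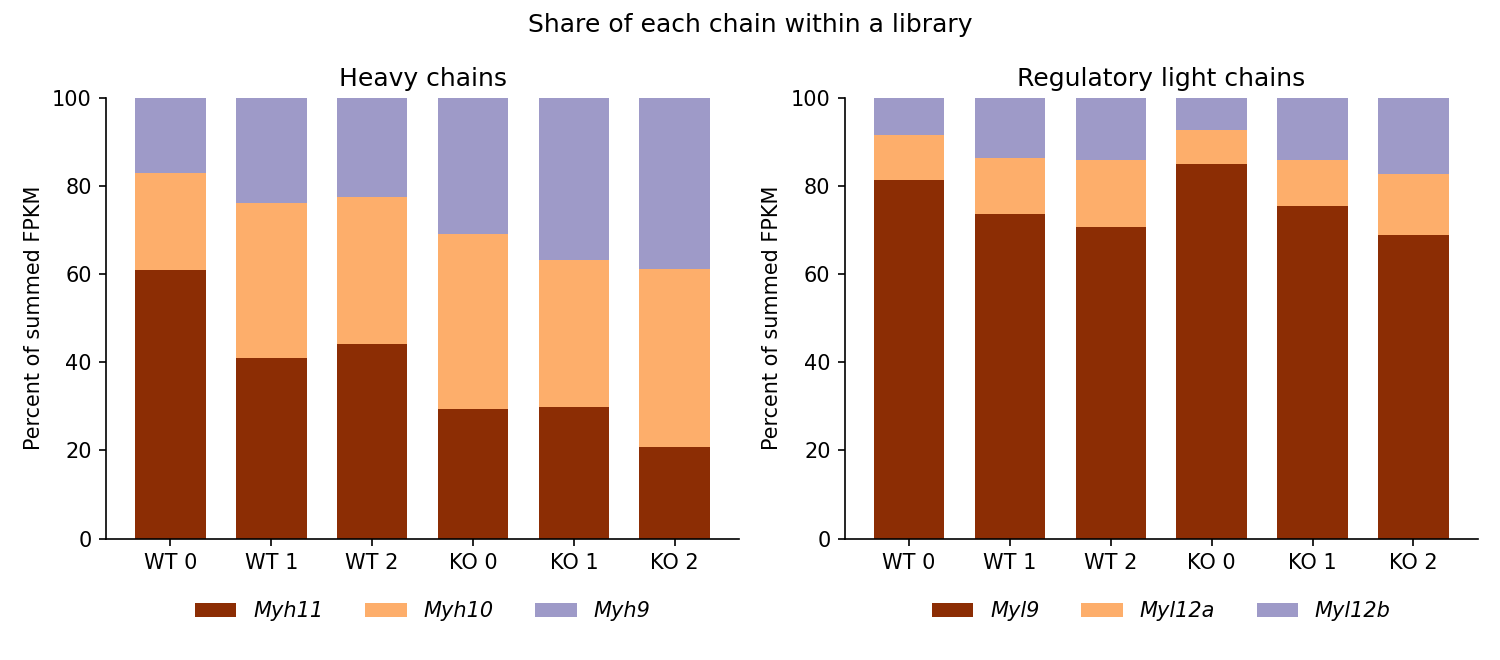
Percent of the summed FPKM of 3 heavy chains (left) and 3 regulatory light chains (right) that each gene made up in each library, as stacked bars. *Myh11* fills 40.9% to 60.9% of the heavy chain bar in WT and 20.7% to 29.8% in KO, whereas the *Myl9* share overlaps between the groups.

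*Myh11* was also lower relative to *Acta2*, which encodes smooth muscle α-actin. The log2 ratio of *Myh11* to *Acta2* was -1.60, -1.98, and -1.47 in WT and -2.98, -2.37, and -2.59 in KO. The groups did not overlap, with a mean difference of -0.96 (two-sided exact permutation test, p = 0.1, 0.175 adjusted over 7 ratios). *Acta2* itself was at 2262, 1121, and 855 FPKM in WT and at 1161, 809, and 396 FPKM in KO, and its ranges overlapped. The direction of such a ratio depends on the contractile gene that is chosen. *Cnn1* (-2.02), *Lmod1* (-2.05), and *Tpm2* (-2.14) had lower log2 fold changes than *Myh11* (-1.81). The rest of the contractile genes listed, *Acta2* (-0.85) among them, had higher ones.

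Among the light chains, the smallest unadjusted p belonged to *Myl12a*, which encodes a regulatory light chain found in most cells (chromosome 17, 70993656 to 71002878). It was at 144, 114, and 168 FPKM in WT and at 75.4, 66.2, and 61.7 FPKM in KO. The KO values were close together and all below the WT values. It had a log2 fold change of -1.05 (95% interval -1.50 to -0.61), with an unadjusted p of 0.000679, the 25th smallest of the 12955 genes, and an adjusted p of 0.332 from limma. It lay between -1.20 and -0.92 when any 1 library was dropped.

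*Myl12b*, its neighbor on chromosome 17 (70973133 to 70990890), differed in the same direction. It was at 117, 123, and 157 FPKM in WT and at 71.4, 91.2, and 77.3 FPKM in KO, without overlap. Its log2 fold change was -0.72 (95% interval -1.14 to -0.30), with an unadjusted p of 0.00449 and an adjusted p of 0.463 from limma. As the shared sequence above shows, reads of these 2 genes could be split between them, and a gene on the opposite strand, *Gm26561*, overlaps both. A read-through gene on the same strand, also named *Myl12b*, overlaps both as well and was left out of the window comparison. *Myom1*, which overlaps *Myl12a* on the opposite strand, was at 79.6, 88.3, and 58.3 FPKM in WT and at 89.2, 58.9, and 57.6 FPKM in KO, and these ranges overlapped.

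*Myl9*, the regulatory light chain of smooth muscle (chromosome 2, 156775420 to 156781658), was at 1137, 663, and 781 FPKM in WT and at 835, 488, and 307 FPKM in KO. KO library 0 lay above WT libraries 1 and 2, so the groups overlapped. For *Myl9* the log2 fold change was -0.74 (95% interval -1.64 to 0.15, adjusted p = 0.639 from limma), and it was -1.12 without KO library 0 and -0.39 without KO library 2. *Myl6*, the essential light chain that smooth muscle and nonmuscle myosins share (chromosome 10, 128490860 to 128494145), was at 4100, 2684, and 4478 FPKM in WT and at 3283, 2750, and 1559 FPKM in KO. KO libraries 0 and 1 were above WT library 1, and the log2 fold change was -0.60 (95% interval -1.51 to 0.30, adjusted p = 0.687 from limma). It was -0.29 without KO library 2 and -0.83 without WT library 1.

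The share of *Myl9* among the regulatory light chains did not separate the groups in the way that the share of *Myh11* did among the heavy chains. *Myl9* made up 81.3%, 73.7%, and 70.6% of the summed FPKM of *Myl9*, *Myl12a*, and *Myl12b* in WT and 85.1%, 75.6%, and 68.8% in KO. The mean difference was 1.27 percentage points (two-sided exact permutation test, p = 0.8), and its sign turned when KO library 0 was left out, to -3.01 percentage points.

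*Mylk*, which encodes the myosin light chain kinase (chromosome 16, 34745210 to 35002420), was at 93.2, 45.6, and 31.4 FPKM in WT and at 47.6, 45.7, and 23.8 FPKM in KO. Only WT library 0 stood above all KO libraries. The log2 fold change was -0.45 (95% interval -1.46 to 0.55, adjusted p = 0.75 from limma) and was -0.021 without WT library 0. *E130310I04Rik*, which runs antisense to *Mylk*, was between 0.645 and 8.03 FPKM in the 6 libraries.

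*Ppp1r12a* encodes the subunit that targets myosin phosphatase to myosin (chromosome 10, 108162193 to 108284475). It was at 258, 171, and 210 FPKM in WT and at 184, 149, and 118 FPKM in KO, where only KO library 0 lay above a WT library. The log2 fold change was -0.51 (95% interval -1.04 to 0.026, adjusted p = 0.611 from limma). *Ppp1r14a*, which encodes CPI-17, an inhibitor of that phosphatase (chromosome 7, 29289308 to 29293801), was at 193, 103, and 26.4 FPKM in WT and at 30.2, 58.5, and 14.5 FPKM in KO, where WT library 2 was below KO libraries 0 and 1. The log2 fold change of *Ppp1r14a* was -1.45 (95% interval -3.20 to 0.31, adjusted p = 0.641 from limma), and it ranged from -2.25 without WT library 2 to -0.82 without WT library 0.

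The log2 ratio of kinase to phosphatase subunit, *Mylk* to *Ppp1r12a*, was -1.47, -1.91, and -2.75 in WT and -1.96, -1.70, and -2.31 in KO. These overlap, with a mean difference of 0.052 (two-sided exact permutation test, p = 1). The log2 ratio of *Ppp1r14a* to *Ppp1r12a* was -0.42, -0.73, and -2.99 in WT and -2.61, -1.35, and -3.02 in KO. The mean difference was -0.94, and WT library 2 lay among the KO libraries (exact permutation p = 0.3). This difference was -0.46 without WT library 0 and -1.75 without WT library 2.

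**Figure D3:**
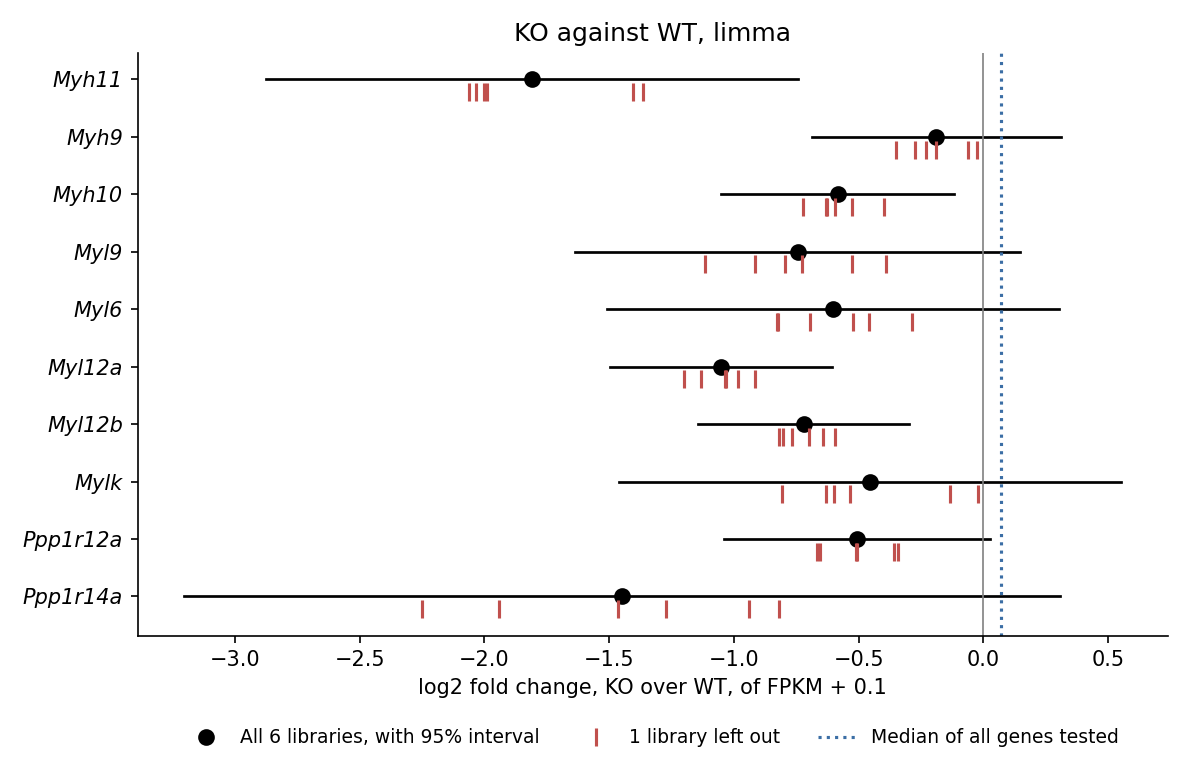
Log2 fold change of each myosin gene, KO over WT, on the log2(FPKM + 0.1) scale, with the 95% interval from limma (black), the values with 1 library left out (red ticks), and the median of all genes tested (dotted line). The intervals of *Myh11*, *Myh10*, *Myl12a*, and *Myl12b* lie below 0, and no tick crosses 0 for any of the 10 genes.

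Other subunits of myosin II and its phosphatase that had not been picked as members were followed as a list of 10 genes, of which 7 were abundant enough to test. Their median log2 fold change was 0.13, with 3 below 0, and 0 passed an adjusted p of 0.05 in limma. The 3 below 0, *Ppp1r12b*, *Ppp1r12c*, and *Ppp1r14b*, were at 22.97 FPKM or more in every library. The 4 above 0 were low, with *Myl6b*, *Mylk3*, and *Mylk4* at most 6.51 FPKM and *Ppp1r14c* at most 10.9 FPKM. The median is the value of *Mylk4*, one of these low genes. *Ppp1r12c*, another targeting subunit, was at 41.3, 32.8, and 63.8 FPKM in WT and at 30.6, 31.4, and 23.0 FPKM in KO (log2 fold change -0.66, unadjusted p = 0.0461, adjusted p = 0.6 from limma). *Ppp1r14b*, a relative of CPI-17, had a log2 fold change of -0.73 with overlapping groups (unadjusted p = 0.0365, adjusted p = 0.591 from limma). *Ppp1r12b*, the targeting subunit known from striated muscle, was at 43.8, 39.8, and 24.9 FPKM in WT and at 46.3, 31.1, and 25.5 FPKM in KO, with overlapping ranges. The nonmuscle IIC heavy chain *Myh14* was at most 1.31 FPKM and was not tested.

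The upstream pathway that sets light chain phosphorylation was represented by 29 genes for calmodulin, RhoA, its exchange factors, kinases, and phosphatase catalytic subunits, and all 29 were tested. Their median log2 fold change was -0.057, with 17 below 0 and 12 above 0, near the 0.072 of all genes. In limma 0 passed an adjusted p of 0.05, and 1 lower and 2 higher genes had an unadjusted p under 0.05. At that unadjusted p, 4.97% of all genes tested were lower and 3.31% were higher, so counts this small are no result about the pathway. The lower gene was *Calm2*, which encodes calmodulin, at 483, 439, and 620 FPKM in WT and 365, 402, and 328 FPKM in KO (log2 fold change -0.48, adjusted p = 0.591 from limma). The higher genes were the kinase *Pkn2*, with a log2 fold change of 0.57 (adjusted p = 0.564 from limma), and the kinase *Pak1*, which was at most 0.271 FPKM in WT and between 1.05 and 3.32 FPKM in KO. The kinases *Rock1* and *Rock2* had log2 fold changes of -0.10 and 0.073, *Rhoa* had -0.28, and the phosphatase catalytic subunit *Ppp1cb* had -0.18, all with overlapping groups.

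Smooth muscle was marked in every library by contractile genes, with *Tagln* at 684 to 1350 FPKM in WT and 216 to 676 FPKM in KO, although *Synm* of the same list was at most 3.48 FPKM. The 14 genes listed, which include *Acta2*, the calponin *Cnn1*, and the tropomyosin *Tpm2*, had a median log2 fold change of -1.34. All 14 were below 0, against 44.4% of all genes tested, and 10 were lower in KO without overlap, against 7.84%. In limma 0 of the 14 passed an adjusted p of 0.05. Before adjustment, 9 had a p under 0.05 and were lower in KO, against 4.97% of all genes tested. Their summed level was 3994 to 7096 FPKM in WT and 1773 to 3367 FPKM in KO. The lowest unadjusted p belonged to *Tpm2*, at 290, 176, and 280 FPKM in WT and 57.6, 67.2, and 42.9 FPKM in KO (log2 fold change -2.14, adjusted p = 0.17 from limma). This list was chosen with earlier results of these data known, and its direction was already known from these libraries.

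**Figure D4:**
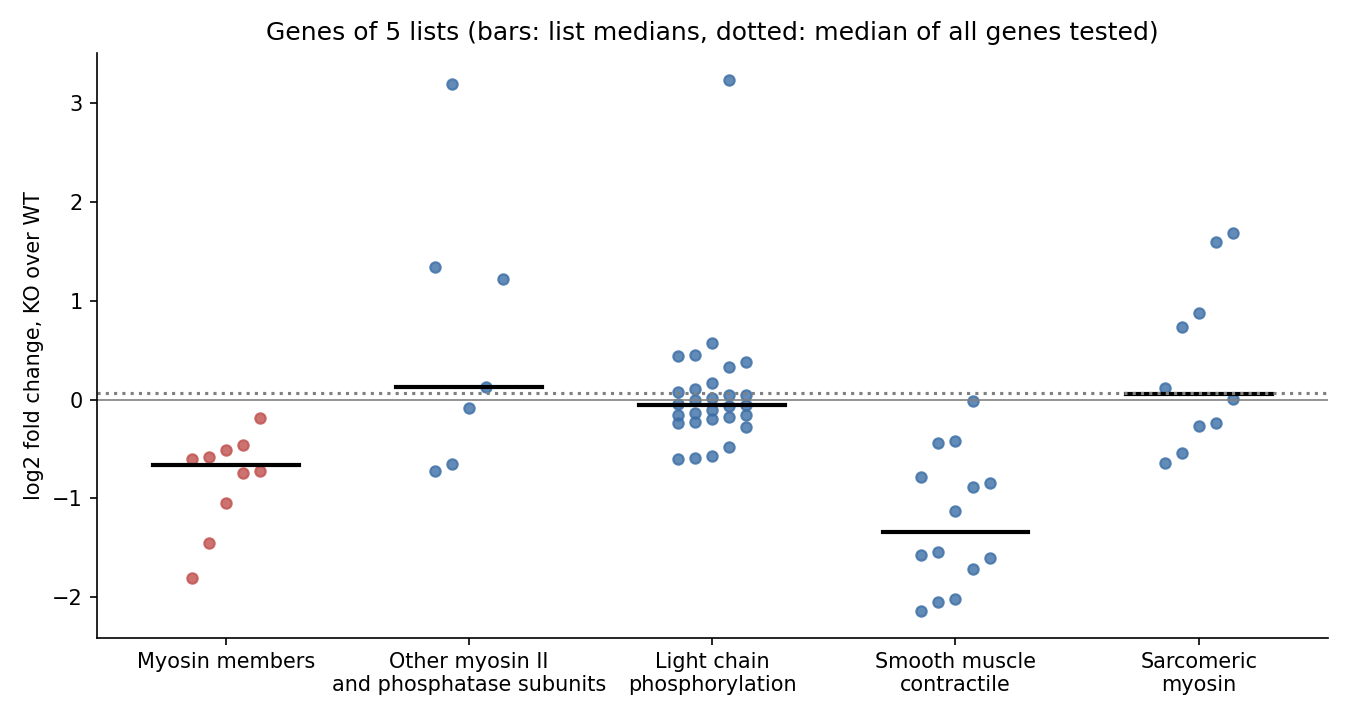
Log2 fold changes, KO over WT, of the tested genes in 5 lists, 1 point per gene, with list medians as bars and the median of all genes tested as a dotted line. The 10 myosin genes (median -0.66) lie below 0 like the 14 contractile genes (median -1.34), and the medians of the other 3 lists are between -0.057 and 0.13. In the list of other subunits, the genes above 0 were low in FPKM.

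Markers of other cell types differed between the libraries as well, and their part in the myosin values was not tested. The summed level of 6 Schwann cell genes was 10.6 to 12.2 FPKM in WT and 11.7 to 76.4 FPKM in KO. The sum of 8 neuron genes was 18.2 to 37.4 FPKM in WT and 43.4 to 76.5 FPKM in KO. In each of these lists, 1 tested gene had a log2 fold change below 0. It was *S100b* (-2.1) among the Schwann cell genes and *Gap43* (-0.28) among the neuron genes, both with overlapping groups. For 7 erythroid genes the sum was 3864 to 7582 FPKM in WT and 4285 to 24360 FPKM in KO, and for 8 endothelial genes it was 364 to 508 FPKM in WT and 421 to 684 FPKM in KO. Fibroblast genes summed to 2524 to 5184 FPKM in WT and 1900 to 4285 FPKM in KO. Macrophage genes summed to 37.6 to 217 FPKM in WT and 41.0 to 268 FPKM in KO. Epithelial genes summed to 65.7 to 227 FPKM in WT and 74.9 to 175 FPKM in KO. Of all these sums, only that of the neuron genes did not overlap between the groups.

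Across the 6 libraries, the profile of *Myh11* on the log2 scale was most like those of *C030046E11Rik* (r = 0.996), *Fstl1* (r = 0.994), *Synpo2* (r = 0.99), *Dynll1* (r = 0.99), *Cnn1* (r = 0.987), and *Actg2* (r = 0.986), among 6318 other genes with a mean of at least 10 FPKM. *Synpo2*, *Cnn1*, and *Actg2* encode contractile or actin-binding proteins of smooth muscle and were in the contractile list, and *Dynll1* encodes a light chain of the dynein motor. *Synpo2* was at 92.1, 46.7, and 48.9 FPKM in WT and at 28.3, 22.8, and 11.6 FPKM in KO, the same order of high and low groups as *Myh11*. A high r does not mean a difference of equal size. *C030046E11Rik* lay between 12.8 and 18.0 FPKM and *Fstl1* between 871 and 2090 FPKM, while *Myh11* lay between 65.6 and 749 FPKM. The profile of *Myh10* was most like those of *Swi5* (r = 0.997), *Hdgfrp2* (r = 0.991), and *Pdgfrl* (r = 0.99). Within the myosin genes, *Myh11* and *Myh10* had r = 0.94, *Myl9* and *Ppp1r12a* r = 0.971, *Mylk* and *Ppp1r14a* r = 0.9, and *Mylk* and *Myl12b* r = 0.149. These r values are Pearson correlations over the same 6 libraries, include the difference between the groups, and are given as a description of the profiles.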

How the data were processed

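RNA of the DA was sequenced in 6 libraries. The authors trimmed the reads, aligned them to mm10 with TopHat2, and deposited FPKM per gene and library made with Cufflinks and Cuffdiff. Versions, the gene annotation, and the scaling between libraries are not given in the sources used here. Groups and replicate numbers came from the sample titles, and 0 columns were left unmatched.

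From the deposited FPKM, log2(FPKM + 0.1) was computed for genes with a mean of at least 1 FPKM and fitted with limma 3.58.1 in R 4.3.3 (two-sided moderated test with an eBayes trend, Benjamini-Hochberg over all genes tested, threshold 0.05). For low genes, fold changes on this scale depend on the added 0.1, and a single value of 0 can shrink, enlarge, or turn them. Cuffdiff was not repeated, since it needs the reads. The procedure was tested on simulated data. Ratios within a library were compared with exact permutation tests, which cannot give a p under 0.1. No set test was run. Some genes of the Schwann cell list are not reported here and were left out of its sums. The members, lists, and tests were chosen with earlier results of these data known. The genes named by rule are the members, genes of the lists, and the genes whose profiles were most like *Myh11* (6 genes) and *Myh10* (3 genes). Some of the genes that overlap a member, were used to check the libraries, or were called in a fit are also named, and were picked outside that rule. Gene models came from GENCODE vM21 on GRCm38, the assembly of mm10. Alternatives were another pseudocount and filter, other scalings, other variance models, a replicate block, and fits with 1 library omitted. One further fit, without WT library 1 and KO library 2, was chosen after the data were seen.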

Additional observations from a re-analysis of the deposited data

How the results depend on the processing

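The log2 fold changes of the 10 myosin genes stayed below 0 and short of an adjusted p of 0.05 in limma in all 15 alternatives each, and the lowest adjusted p was 0.273, for *Myl12a*. With 1 library left out they ranged from -2.06 to -1.36 for *Myh11*, -0.72 to -0.40 for *Myh10*, -0.35 to -0.025 for *Myh9*, and -0.82 to -0.59 for *Myl12b*. With quantile normalization *Myl6* was at -1.43, *Myh10* at -0.33, and *Myh9* at -0.0046. The count of 1 called gene, *Rn45s*, became 2 without the trend and 2 without moderation (with *Brinp3*), and 3 without WT library 1 and KO library 2, the libraries highest in sarcomeric myosin (with *Mir3064* and *Oaz1-ps*). It ranged from 1 to 3 with 1 library left out, where it was 3 without WT library 1, KO library 0, or KO library 2. In that fit without both libraries, *Myh11* was at -1.66, *Myl12a* at -1.14, *Ppp1r14a* at -0.76, and *Mylk* at -0.21, and the difference in the log2 ratio of *Ppp1r14a* to *Ppp1r12a* was -0.27. The difference in the *Myl9* share turned from 1.27 to -1.03 percentage points without WT library 2, and ranged from -3.01 to 5.10 percentage points with 1 library left out. The log2 ratio of *Mylk* to *Ppp1r12a*, 0.052, turned to -0.039 with quantile normalization and ranged from -0.30 to 0.34 with 1 library left out. The causes were not tested. The other 5 ratios kept their sign in all 10 alternatives.

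Same-numbered libraries were not shown to be pairs, since their deviations from the group means correlated at 0.122, -0.0761, and -0.00878. With the replicate block, 1 gene was called, and the log2 fold change of *Myh11* was -1.81 (adjusted p = 0.291 from limma). The depth behind each FPKM is unknown.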

Other observations

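Striated muscle myosins were present in these DA libraries at levels that differed widely between libraries of the same group. The summed level of 14 sarcomeric myosin genes was 44.4, 1001, and 351 FPKM in WT libraries 0, 1, and 2 and 137, 118, and 1134 FPKM in KO libraries 0, 1, and 2. The atrial heavy chain *Myh6* was at 3.77, 357, and 25.0 FPKM in WT and at 5.94, 6.62, and 281 FPKM in KO, so that in WT library 1 and in KO library 2 it exceeded *Myh11* (284 and 65.6 FPKM). The atrial light chains *Myl4* and *Myl7* were highest in the same 2 libraries, with *Myl4* at 349 and 508 FPKM and *Myl7* at 187 and 194 FPKM. The ventricular light chain *Myl2* had another order, with its highest value, 124 FPKM, in WT library 2. Of the 10 sarcomeric genes tested, 4 were below and 6 above 0 in log2 fold change, with a median of 0.061, and 0 had an unadjusted p under 0.05 in limma.

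The summed level of 10 heart muscle genes outside the myosins was highest in the same 2 libraries. This sum, which includes the cardiac actin *Actc1* and the troponin *Tnni3*, was 141, 1015, and 440 FPKM in WT and 230, 126, and 1197 FPKM in KO. Single genes had other orders, with *Pln* and *Myoz2* highest in WT library 2 and *Nppa* at most 0.588 FPKM. Skeletal muscle genes were low, with a sum of 16.7 to 74.2 FPKM over the 6 libraries and *Myod1* at 0 in every library. The skeletal troponin *Tnnt3* was at 11.8, 6.58, and 7.87 FPKM in WT and at 1.09, 0, and 1.01 FPKM in KO (unadjusted p = 0.00528, adjusted p = 0.472 from limma). The other 4 skeletal muscle genes tested overlapped between the groups, with log2 fold changes from -1.03 for *Ckm* to 2.09 for *Tnni2*.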
